A study of Homo sapiens with 8 samples.

Results

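The RUNX factors and their partner are 6 genes of 19797 protein-coding genes on the autosomes and the X chromosome, chosen by name. They are RUNX1, RUNX2 and RUNX3, the common partner CBFB, and 2 related corepressors, RUNX1T1 and CBFA2T3. Each gene was read on hg19 as its consensus coding transcripts plus 50 kb on each side, called its gene region here. The first start of each RUNX gene is the distal promoter and the second the proximal promoter. HL-60 is an established human leukemia line, grown from peripheral blood and labelled acute promyelocytic leukemia, that differentiates towards granulocytes when given all-trans retinoic acid (ATRA). Cells were given 1 µM ATRA in ethanol, or ethanol alone as the control, for 4 days, and no genetic change is named for either group. ChIP-seq of H3K4me3, a mark of active promoters, and of H3K27ac, a mark of active promoters and enhancers, was analyzed in 2 replicates per condition, which makes 8 libraries. The question of the comparison is which of these genes carry more or less of each mark after ATRA.

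RUNX1, RUNX2 and RUNX3 encode transcription factors that bind DNA through a Runt domain, and CBFB encodes the subunit that does not touch DNA itself and strengthens this binding. RUNX1 is needed for the emergence of blood stem cells and for granulocyte and platelet formation, RUNX2 is the master factor of bone formation, and RUNX3 is known for its roles in lymphocytes and neurons. RUNX1T1, also called ETO, is fused to RUNX1 by a translocation of acute myeloid leukemia, and CBFA2T3, also called ETO2, is a corepressor of the same family that is active in blood progenitors.

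Each value below is the length of DNA under the peaks of a library, since the deposited peaks come without read counts. More cells with a mark and more of the mark per cell cannot be told apart in bulk chromatin. The H3K4me3 libraries covered between 47.7 and 63.2 Mb of the genome. The H3K27ac libraries covered 64.8 and 86.1 Mb after ATRA and 28.8 and 54.0 Mb in the control. The totals were thus higher after ATRA but also differed between replicates, and the depth behind them is unknown. As a check of the label, MPO, 1 of 4 genes of promyelocytes examined, had peaks of both marks within 1 kb of the start in all libraries, while ELANE had none in any. In ATRA replicates 1 and 2 and control replicates 1 and 2, AZU1 had 903, 848, 0 and 402 bp of H3K27ac there and no H3K4me3. In the same order, PRTN3 had 614, 1457, 0 and 0 bp of H3K4me3 and 1398, 695, 0 and 895 bp of H3K27ac. In the control libraries, 3 of the 4 genes thus lacked H3K4me3 at the start. CD3E, ALB and EPCAM, genes of other cell types, had no H3K4me3 at the start in any library, and among them CD3E had H3K27ac there, in both ATRA libraries and neither control library. Of 4 genes of granulocyte differentiation, 3 had H3K27ac at the start in each ATRA library and 0 and 1 in the control libraries.

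The sequences around the starts are shown because the 2 promoters of each RUNX gene differed in their letters, and those of RUNX2 and RUNX3 also in their marks. Each window holds 250 bases before and 50 bases from the start in the direction of the gene, from the GRCh37 genome, and capitals mark the RUNX motif TGTGGT or TGCGGT or its complement ACCACA or ACCGCA. The distal windows lie at chr21:36421592-36421891 (minus strand), chr6:45295804-45296103 (plus strand) and chr1:25291452-25291751 (minus strand), and the RUNX3 proximal window at chr1:25256718-25257017 (minus strand).
RUNX1 distal promoter: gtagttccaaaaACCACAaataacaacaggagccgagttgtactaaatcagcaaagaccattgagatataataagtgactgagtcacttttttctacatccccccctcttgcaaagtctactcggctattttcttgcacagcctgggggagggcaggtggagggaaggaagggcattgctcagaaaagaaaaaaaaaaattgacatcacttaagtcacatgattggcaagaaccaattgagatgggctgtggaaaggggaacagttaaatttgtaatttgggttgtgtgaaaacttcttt
RUNX2 distal promoter: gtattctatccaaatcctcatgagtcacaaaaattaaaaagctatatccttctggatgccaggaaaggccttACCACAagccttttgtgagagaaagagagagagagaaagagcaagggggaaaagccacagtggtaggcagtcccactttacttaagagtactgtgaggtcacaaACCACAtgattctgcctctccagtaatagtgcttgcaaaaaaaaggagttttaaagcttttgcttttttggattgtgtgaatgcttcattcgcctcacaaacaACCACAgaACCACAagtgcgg
RUNX3 distal promoter: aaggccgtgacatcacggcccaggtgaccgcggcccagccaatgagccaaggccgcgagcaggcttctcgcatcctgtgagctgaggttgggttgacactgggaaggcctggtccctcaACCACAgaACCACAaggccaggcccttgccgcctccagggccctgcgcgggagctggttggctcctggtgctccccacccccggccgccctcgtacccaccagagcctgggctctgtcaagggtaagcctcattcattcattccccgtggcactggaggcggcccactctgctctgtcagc
RUNX3 proximal promoter: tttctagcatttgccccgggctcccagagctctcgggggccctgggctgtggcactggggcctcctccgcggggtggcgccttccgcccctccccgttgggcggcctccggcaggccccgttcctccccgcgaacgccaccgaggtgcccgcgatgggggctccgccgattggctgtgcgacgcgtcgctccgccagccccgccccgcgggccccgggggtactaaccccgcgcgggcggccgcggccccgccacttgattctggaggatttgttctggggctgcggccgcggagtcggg

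The RUNX1 distal window held 1 RUNX motif, that of RUNX2 held 4 and that of RUNX3 held 2, all of the TGTGGT form. None of the 3 proximal windows, nor the windows of CBFB and of the first CBFA2T3 start, held a match. A match to either form was found in 19.2% of the windows of all 19797 genes. The distal windows of RUNX2 and RUNX3 shared a run of 18 bases with a tandem pair of motifs, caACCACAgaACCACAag, which began 28 bases into the RUNX2 transcript and 133 bases before the RUNX3 start. The longest run that RUNX1 shared with either was 9 bases. The distal windows of RUNX1 and RUNX2 held 2 CpG dinucleotides each and that of RUNX3 held 15, against 40, 19 and 38 in the proximal windows of RUNX1, RUNX2 and RUNX3 and a median of 21 over all genes. The CBFB window held 45 CpG and was 79.7% G or C. A match describes the letters of the window and not a bound site.

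RUNX3 (ENSG00000020633, chr1:25226002-25291501, minus strand) was the member with the largest difference in H3K27ac. Its gene region had 63.2 and 37.4 kb under H3K27ac peaks in ATRA replicates 1 and 2, and 4.03 and 2.39 kb in control replicates 1 and 2. Both ATRA libraries lay above both control libraries, with means of 50.3 ± 18.3 kb and 3.21 ± 1.16 kb (SD, n = 2), a ratio of 15.7. Peaks covered 38.2% and 22.6% of the region after ATRA and 2.44% and 1.44% in the control. On the log2(bp + 1000) scale the difference was 3.59 with a standard error of 0.46, and it ranked 75 of 16678 gene regions by size. Its limma p was 0.000447 and its Benjamini-Hochberg adjusted p 0.0782, so it did not pass the threshold of 0.05. No gene region passed it for H3K27ac with limma (0 of 16678, 0.0%), while 3392 had an unadjusted p under 0.05. The median of all gene regions was 0.55, and RUNX3 stood 3.04 above it. When lengths were scaled so that each library of a mark covered the same total, the RUNX3 values were 57.0 and 25.4 kb after ATRA and 8.19 and 2.59 kb in the control, which still did not overlap. With only peaks of −log10 q of at least 5 the region had 0, 2.04, 0 and 0 kb in the same order, so nearly all of its H3K27ac length lay in peaks under that value. Over the genome, 12.8% to 16.9% of the H3K27ac peaks of a library reached it.

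**Figure D1:**
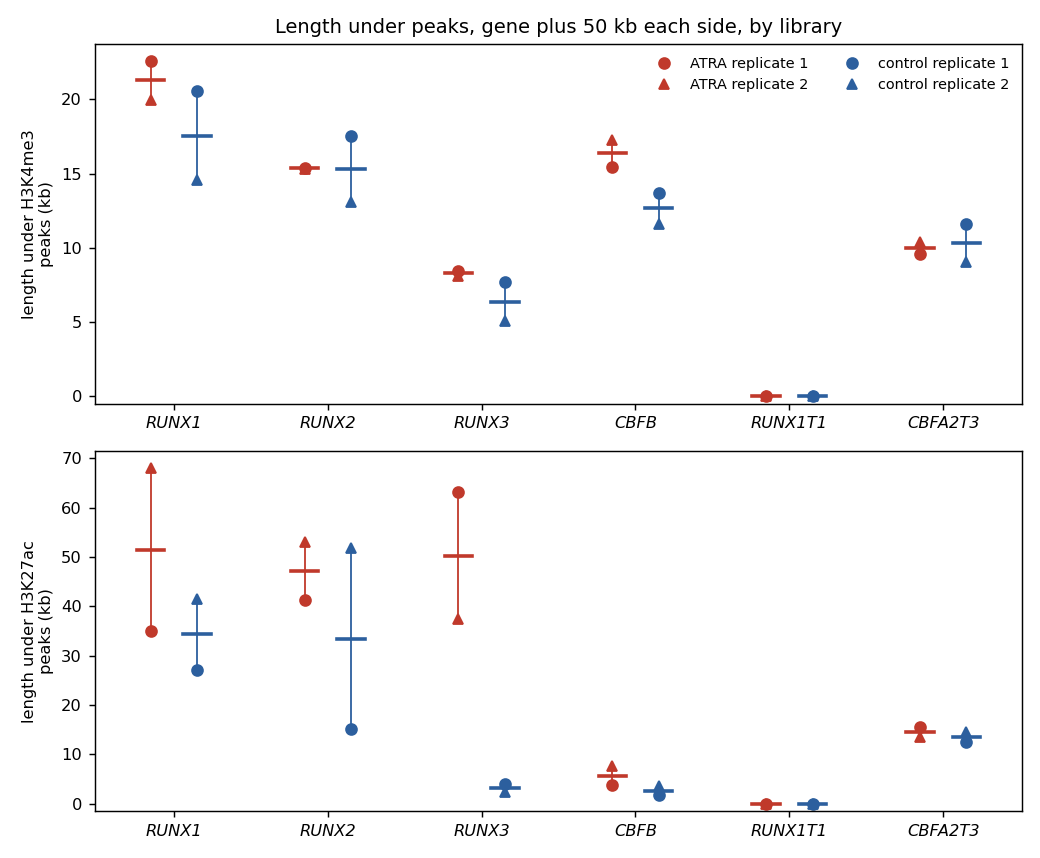
Length under H3K4me3 peaks (top) and H3K27ac peaks (bottom) in kb for the gene region of each member, with red points for ATRA and blue points for control, circles for replicate 1, triangles for replicate 2 and a bar at the mean of each pair. For H3K27ac at RUNX3 the ATRA points sit at 63.2 and 37.4 kb, far above the control points at 4.03 and 2.39 kb, and RUNX1T1 lies at 0 in every library.

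The H3K27ac difference at RUNX3 lay upstream of the gene and between its promoters. The 50 kb before the distal start held 34.1 and 18.6 kb under peaks after ATRA, in 9 and 10 peaks, and none in either control library. Upstream windows with peaks in both ATRA libraries and neither control library were found at 651 of 13983 genes (4.66%), and in 4 of these, RUNX3 among them, both ATRA libraries had at least 18594 bp. Between the promoters the lengths were 26.0 and 12.4 kb after ATRA and 3.71 and 0.2 kb in the control. From the proximal start to the gene end they were 3.05 and 3.38 kb after ATRA and 0.214 and 0.992 kb in the control. Each of these 3 stretches thus had both ATRA libraries above both control libraries, whereas the 50 kb after the gene, with 0, 2.99, 0.108 and 1.2 kb in the same order of libraries, did not.

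Overlapping peaks of the 4 libraries of a mark were joined into merged regions, which were called ATRA-only when both ATRA libraries and no control library had a peak there. RUNX3 had 19 merged H3K27ac regions, of which 6 were ATRA-only and all 6 lay upstream, against 4288 of 53146 (8.07%) merged regions over the genome. The longest of them spanned 12797 bp at chr1:25301001-25313797, centered 15.9 kb before the distal start and overlapping no annotated gene, with 9335 and 8059 bp under peaks in ATRA replicates 1 and 2. The next spanned 6757 bp at chr1:25293104-25299860, with 6757 and 1346 bp, and the third 4011 bp at chr1:25319890-25323900, with 4011 and 1258 bp. Farther out, a merged region of 45458 bp at chr1:25334602-25380059 crossed the end of the gene region and the noncoding genes LINC02793 and MIR4425. It had 45458 and 32480 bp under peaks after ATRA and 12059 and 9378 bp in the control, so this region was present in all 4 libraries but longer in both ATRA libraries. Within 100 kb on each side of RUNX3, the lengths were 106.0 and 71.1 kb after ATRA and 17.3 and 13.9 kb in the control.

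The middle of the longest stretch that lay under both ATRA peaks and no control peak is shown as the clearest example of the upstream difference. It is at chr1:25338183-25338482 on the plus strand of GRCh37, within a stretch of 6338 bp that is part of the 45458 bp region and stops at the end of the gene region. That merged region had peaks in all 4 libraries, so it is a shared region and not an ATRA-only one. In the label of the sequence, ATRA-only refers to the stretch, which lay under no control peak, and not to the merged region. Stretches under both ATRA peaks and no control peak summed to 25136 bp in the RUNX3 gene region. The window shown held 0 RUNX motifs and 1 match to AGGTCA, the core motif bound by retinoic acid receptors. This match is found in 16.9% of 9944 windows of the same length at regions shared by all 4 libraries, the class of this region. At ATRA-only regions it is found in 22.7% of 4275.
RUNX3 ATRA-only stretch: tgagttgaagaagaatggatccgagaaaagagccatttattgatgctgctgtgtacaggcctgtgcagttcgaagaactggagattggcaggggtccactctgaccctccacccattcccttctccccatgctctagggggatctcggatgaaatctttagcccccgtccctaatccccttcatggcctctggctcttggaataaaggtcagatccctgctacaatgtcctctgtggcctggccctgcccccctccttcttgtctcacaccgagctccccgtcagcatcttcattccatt

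H3K4me3 at RUNX3 lay mainly at the proximal promoter. The window of 1 kb on each side of the proximal start (2001 bp) was covered in full in all 4 H3K4me3 libraries, and that of the distal start had no H3K4me3 in any. The peak over the proximal start was 7521 and 7562 bp long after ATRA and 7496 and 5062 bp in the control. H3K27ac covered 1035 and 2001 bp of the proximal window after ATRA and 208 and 6 bp in the control, which did not overlap, a pattern seen at 27.6% of the starts with any H3K27ac. At the distal window it covered 1549 and 0 bp after ATRA and 501 and 0 bp in the control, which overlapped. Over the whole gene region H3K4me3 covered 8.46 and 8.12 kb after ATRA and 7.69 and 5.06 kb in the control, a log2 difference of 0.36 with a standard error of 0.21 and an adjusted p of 0.599 with limma. The sole ATRA-only H3K4me3 region at any member was also here, 824 bp at chr1:25304631-25305454 inside the longest ATRA-only H3K27ac region, with 824 and 374 bp under the ATRA peaks. Upstream windows with H3K4me3 in both ATRA libraries and neither control library were found at 0.614% of 13670 genes.

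**Figure D2:**
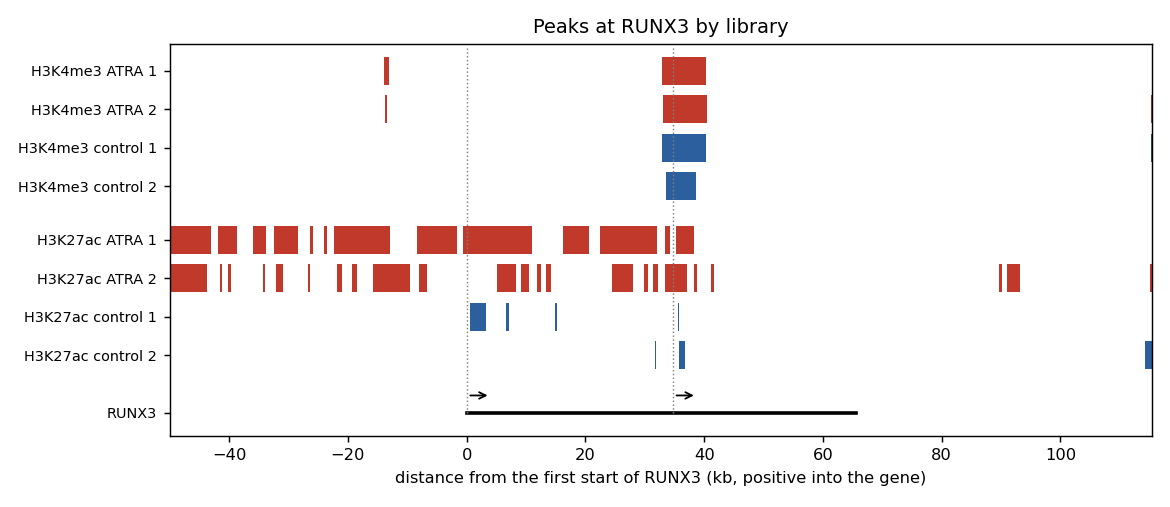
Peaks of each of the 8 libraries (red for ATRA, blue for control) over RUNX3 and 50 kb on each side, by distance in kb from the distal start, with the gene as a black line and its 2 starts as arrows and dotted lines. H3K27ac peaks fill much of the left side in both ATRA rows and are absent there in both control rows, while H3K4me3 sits over the proximal start in all 4 of its rows.

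RUNX1 (ENSG00000159216, chr21:36160098-36421641, minus strand) carried both marks widely in both conditions. Over its whole gene region, neither mark differed between the conditions beyond the spread of the replicates. Its gene region had 22607 and 19962 bp under H3K4me3 after ATRA and 20572 and 14548 bp in the control, so ATRA replicate 2 lay below control replicate 1. H3K27ac covered 34931 and 68035 bp after ATRA and 27040 and 41563 bp in the control, and again the groups overlapped. The log2 differences were 0.28 with a standard error of 0.21 for H3K4me3 (limma adjusted p = 0.638) and 0.53 with a standard error of 0.50 for H3K27ac (limma adjusted p = 0.594), the second 0.03 below the median of all gene regions. Scaled to the library totals, H3K27ac was 31.5 and 46.1 kb after ATRA and 54.9 and 45.0 kb in the control, and the log2 difference turned to -0.37.

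Both RUNX1 promoters carried both marks in every library. H3K4me3 covered 2001, 1767, 1857 and 1804 bp of the distal window in ATRA replicates 1 and 2 and control replicates 1 and 2, and all 2001 bp of the proximal window in each. H3K27ac covered 1029, 2001, 1013 and 2001 bp of the distal window in the same order and the whole proximal window in all 4 libraries. At the distal window the 2 replicates with number 1 were thus low in both conditions. The H3K4me3 peak over the distal start was 6844 and 6886 bp long after ATRA and 5690 and 5655 bp in the control. These lengths did not overlap, but they were not scaled to the library totals. The share of all starts with this pattern of peak lengths is not given. Over the proximal start it was 9618 and 9442 bp after ATRA and 9989 and 8893 bp in the control, which overlapped. Peaks of H3K4me3 lay over the start of 52.4% of all genes, within 1 kb, in all 4 libraries, and peaks of H3K27ac over 34.2%.

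The intronic enhancer known as the +23 kb element is active at RUNX1 in blood stem cells, and it was read as the window from 22 to 25 kb into the gene from the distal start, chr21:36396641-36399641, since its exact ends are not given in the sources used here. H3K27ac covered 1877, 3001, 1857 and 3001 of its 3001 bp in ATRA replicates 1 and 2 and control replicates 1 and 2. The groups overlapped, and their means differed by 10.0 bp. H3K4me3 covered 1854, 1665, 1956 and 0 bp, so only control replicate 2 lacked it. A stretch of 1857 bp at chr21:36397785-36399641 lay under H3K27ac in all 4 libraries, and its middle is shown because it is the part present in both conditions. It is at chr21:36398563-36398862 on the plus strand and held 1 TGTGGT, 1 TGCGGT (as its complement) and 2 AGGTCA.
RUNX1 element: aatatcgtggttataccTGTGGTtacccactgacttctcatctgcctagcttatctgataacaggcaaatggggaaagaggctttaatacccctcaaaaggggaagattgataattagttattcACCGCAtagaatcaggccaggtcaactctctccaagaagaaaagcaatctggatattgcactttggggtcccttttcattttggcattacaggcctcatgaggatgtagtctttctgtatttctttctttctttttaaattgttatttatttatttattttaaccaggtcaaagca

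A match to either RUNX motif was found in 2185 of 9944 windows of this length at regions shared by all 4 H3K27ac libraries. RUNX1 had 31 merged H3K27ac regions, of which 2 were ATRA-only, 1 control-only and 6 shared. The ATRA-only regions lay in introns at chr21:36327194-36330748, with 903 and 3555 bp under the ATRA peaks, and at chr21:36316376-36318983, with 469 and 2608 bp. The control-only region, the only one at the 6 genes, lay in an intron at chr21:36296012-36298217 with 2206 and 1644 bp under the control peaks, against 1.16% of merged H3K27ac regions over the genome. Next to the first ATRA-only region, the shared region at chr21:36331632-36342306, 84.7 kb into the gene and named after its values were seen, had 9678 and 9338 bp after ATRA and 752 and 1452 bp in the control. The introns between the 2 promoters therefore held H3K27ac of each kind, in places longer after ATRA and in another present only in the control.

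RUNX2 (ENSG00000124813, chr6:45296054-45518819, plus strand) carried marks at its proximal promoter and not at its distal one. The distal window had no peak of either mark in any of the 8 libraries, and the proximal window was covered in full by H3K4me3 in all 4. H3K27ac covered 2001 and 2001 bp of the proximal window after ATRA and 393 and 2001 bp in the control, so control replicate 1 stood apart. The gene region had 15.4 and 15.3 kb under H3K4me3 after ATRA and 17.5 and 13.1 kb in the control. It had 41.2 and 53.1 kb under H3K27ac after ATRA and 15.1 and 51.7 kb in the control, where the low value was again control replicate 1, the library with the fewest H3K27ac peaks. The log2 differences were 0.02 with a standard error of 0.19 (limma adjusted p = 0.975) and 0.71 with a standard error of 0.65 (limma adjusted p = 0.580). When control replicate 1 was left out, the H3K27ac difference turned to -0.14. Scaled to the library totals, H3K27ac was 37.1 and 36.0 kb after ATRA and 30.7 and 56.0 kb in the control, and the difference turned to -0.18.

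In the 50 kb after RUNX2, H3K27ac was found in the ATRA libraries alone. This stretch held 12.1 and 4.72 kb under H3K27ac after ATRA, in 10 and 6 peaks, and no peak in either control library, a pattern found at 837 of 12229 genes (6.84%). Among them, 97 genes including RUNX2 had at least 4725 bp in both ATRA libraries. RUNX2 had 40 merged H3K27ac regions, of which 3 were ATRA-only and 5 shared. The ATRA-only regions were at chr6:45529634-45531525, with 1892 and 710 bp under the ATRA peaks, at chr6:45554372-45555813, with 1220 and 1442 bp, and in an intron at chr6:45441140-45442566, with 1427 and 799 bp. The first and second lie after the last consensus coding exon but within the longer annotated gene record. With that record plus 50 kb as the region, the lengths were 104.0 and 110.0 kb after ATRA and 21.5 and 62.1 kb in the control, which did not overlap. An H3K4me3 peak in an intron of RUNX2, with 5892 and 6099 bp after ATRA and 5727 and 4791 bp in the control, lay over the start of the neighboring gene SUPT3H and counts in the RUNX2 values.

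**Figure D3:**
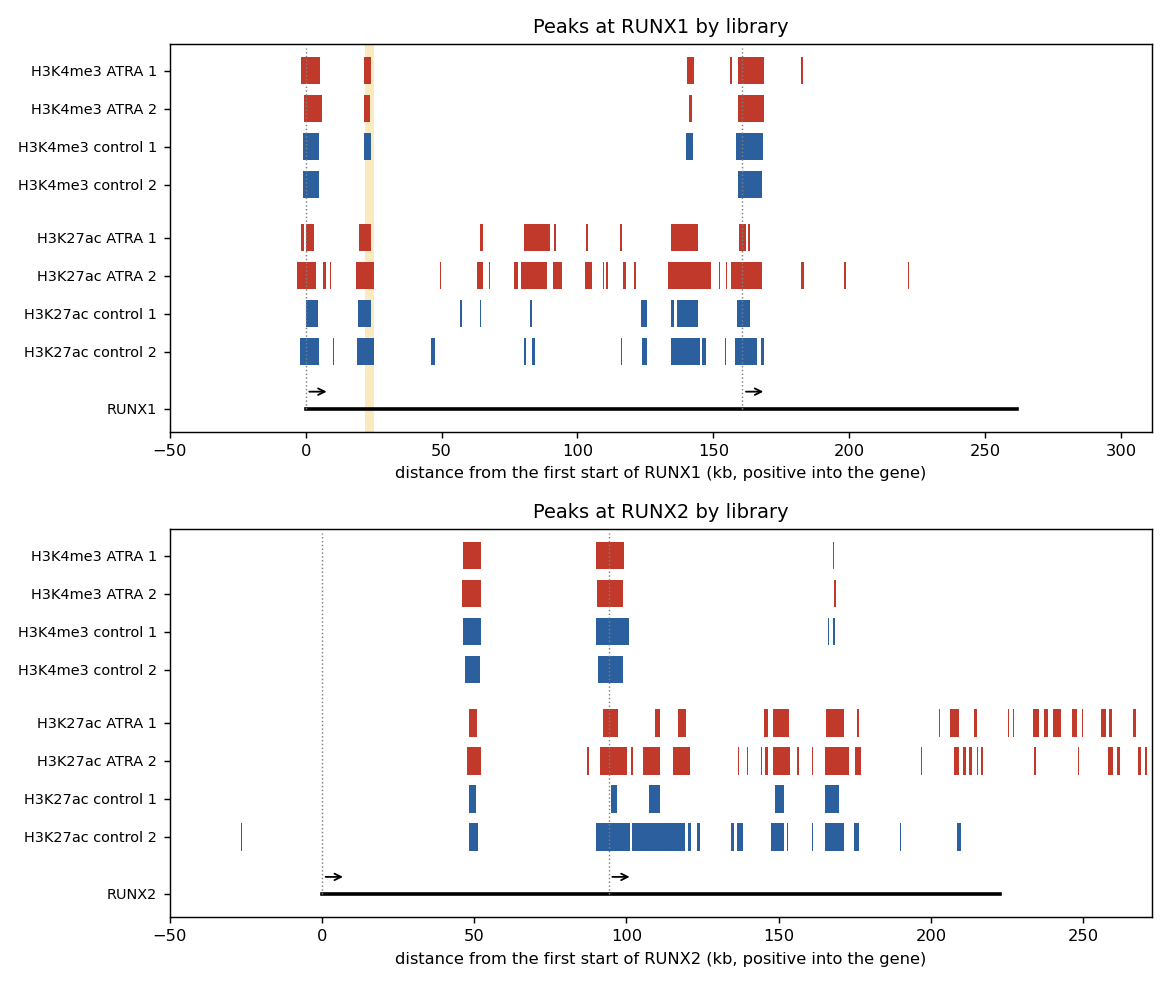
Peaks of each of the 8 libraries over RUNX1 (top) and RUNX2 (bottom) with 50 kb on each side, by distance in kb from the distal start, in red for ATRA and blue for control, with gene lines, arrows at both starts and a yellow band over the window from 22 to 25 kb of RUNX1. The RUNX1 band holds H3K27ac in all 4 libraries, the RUNX2 distal start holds no peak, and the right end of RUNX2 holds H3K27ac in both ATRA libraries only.

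CBFB (ENSG00000067955, chr16:67063052-67134961, plus strand) carried both marks at its start in all 8 libraries. H3K4me3 covered 2001, 2001, 1944 and 2001 bp of the start window and H3K27ac 1678, 1769, 1662 and 1759 bp, in the order of ATRA replicates 1 and 2 and control replicates 1 and 2. The H3K27ac values at the start overlapped between the conditions. The whole gene region had 15.5 and 17.3 kb under H3K4me3 after ATRA and 13.7 and 11.6 kb in the control. It had 3.78 and 7.57 kb under H3K27ac after ATRA and 1.74 and 3.53 kb in the control. Both marks were therefore higher in both ATRA libraries, by 0.35 with a standard error of 0.17 for H3K4me3 (limma adjusted p = 0.565) and by 0.86 with a standard error of 0.50 for H3K27ac (limma adjusted p = 0.398) on the log2 scale. For H3K27ac, the scaled lengths of 3.41 and 5.14 kb after ATRA and 3.53 and 3.82 kb in the control overlapped.

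Within the CBFB gene itself the conditions overlapped for both marks, with 3.58, 3.69, 3.18 and 3.6 kb of H3K4me3 and 0.83, 2.23, 1.08 and 1.85 kb of H3K27ac. The peak over the CBFB start, which reaches before the gene, was 5626 and 5505 bp of H3K4me3 after ATRA. In the control it was 4122 and 5326 bp, which did not overlap, but these lengths were not scaled to the library totals. The flanks hold the starts of neighbors. H3K4me3 over the start of CES4A, upstream, was 3033 and 3959 bp after ATRA and 2825 and 1867 bp in the control, and that over the start of PHAF1, downstream, was 4707 and 5523 bp after ATRA and 3966 and 2639 bp in the control. For H3K27ac the 50 kb upstream overlapped, with 848, 968, 661 and 1112 bp, and the 50 kb downstream did not, with 2102, 4374, 0 and 562 bp. The one ATRA-only H3K27ac region of CBFB lay between CBFB and PHAF1 at chr16:67137691-67140402, with 709 and 2712 bp under the ATRA peaks.

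CBFA2T3 (ENSG00000129993, chr16:88941266-89043615, minus strand) was the member whose merged H3K27ac region over the first start was shorter after ATRA. Its first start window was covered in full by both marks in all 8 libraries, and its second start had no peak of either mark within 1 kb in any. The merged H3K27ac region over the first start, chr16:89040945-89048475, had 5853 and 5526 bp after ATRA and 6787 and 7531 bp in the control, so both ATRA libraries lay below both control libraries. In contrast, an intronic region at chr16:89002110-89005140, just past the second start, was ATRA-only with 2454 and 3031 bp under the ATRA peaks. A further ATRA-only region, at chr16:88920250-88922748 with 1012 and 2499 bp, overlapped the neighbors GALNS and TRAPPC2L, whose starts also carried H3K4me3 in all 4 libraries. The 50 kb before the first start had 8.95 and 4.76 kb of H3K27ac after ATRA and 9.98 and 10.4 kb in the control. These values did not overlap, and they include part of the region over the start. Over the whole gene region H3K27ac covered 15.4 and 13.4 kb after ATRA and 12.4 and 14.6 kb in the control. H3K4me3 covered 9.60 and 10.4 kb after ATRA and 11.6 and 9.04 kb in the control. The log2 differences were 0.09 with a standard error of 0.37 (limma adjusted p = 0.904) and -0.03 with a standard error of 0.18 (limma adjusted p = 0.948). Inside the gene alone, H3K27ac was 5.23 and 5.33 kb after ATRA and 2.08 and 3.06 kb in the control, which did not overlap, while the scaled values of the gene region, 13.9 and 9.09 kb after ATRA and 25.3 and 15.8 kb in the control, were lower after ATRA.

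**Figure D4:**
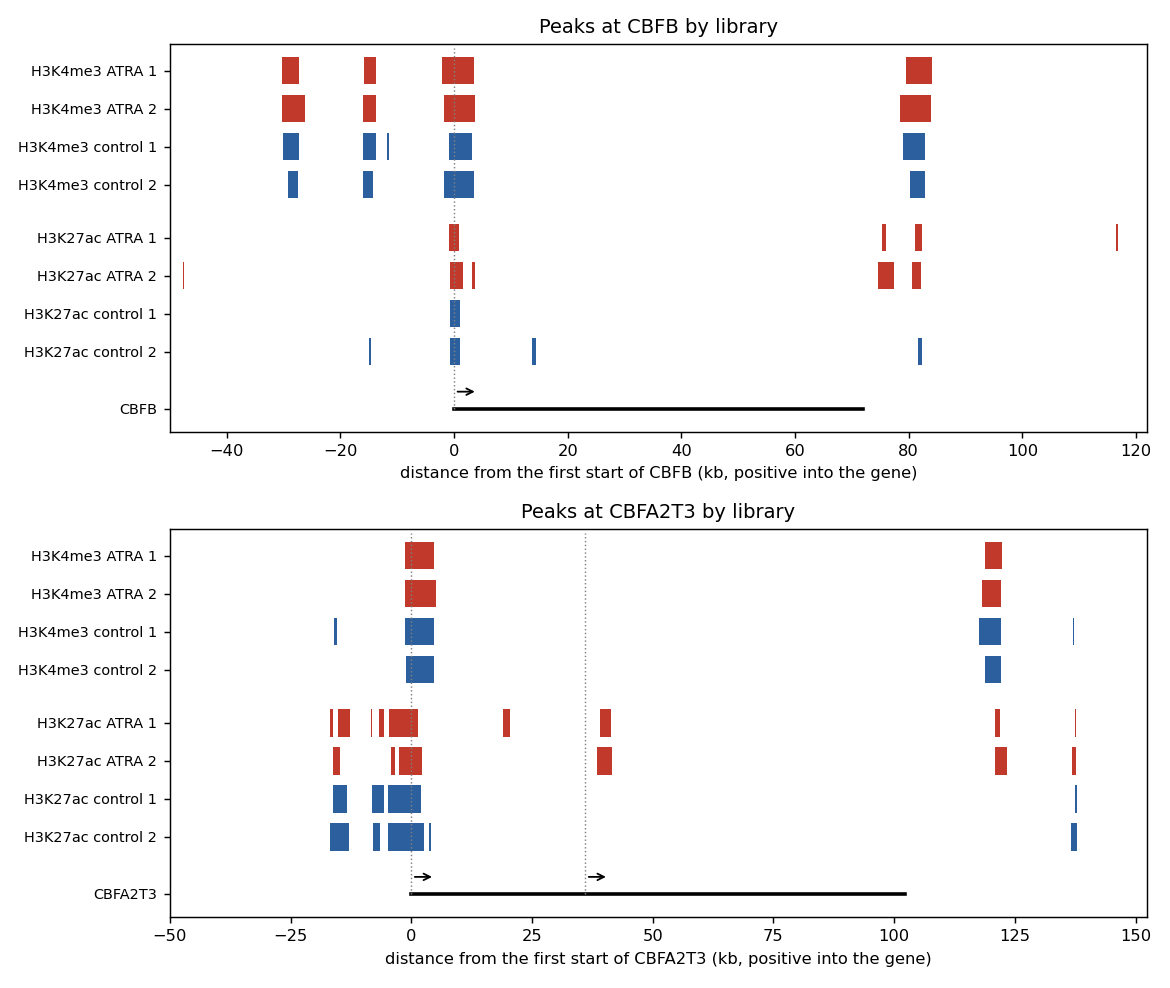
Peaks of each of the 8 libraries over CBFB (top) and CBFA2T3 (bottom) with 50 kb on each side, by distance in kb from the first start, in red for ATRA and blue for control, with gene lines and arrows at the starts. The CBFB start holds both marks in all 8 rows, and the CBFA2T3 intron just past the second start holds H3K27ac in both ATRA rows only.

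RUNX1T1 (ENSG00000079102, chr8:92967200-93115514, minus strand) had no peak of either mark in its gene, at any of its 4 starts or within 50 kb on each side, in any of the 8 libraries. It had none within 100 kb either. Another 2687 protein-coding genes also had no peak in their regions in all 8 libraries. Without counts, this says that no peak was called there and gives no upper limit for the signal.

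Across the members, both ATRA libraries lay above both control libraries for 2 of 6 gene regions in each mark, RUNX3 and CBFB, and below for 0 of 6. The 6 include RUNX1T1, which had no peak and so could lie neither above nor below. Over all gene regions with a peak, the share above was 42.7% for H3K4me3 and 47.5% for H3K27ac, and the share below 2.55% and 3.48%, so the count of members higher after ATRA was not above the background. Of the 22 merged H3K4me3 regions at the members, 1 was ATRA-only, 0 were control-only and 12 were shared, beside 3.04%, 0.758% and 57.3% of 19909 over the genome. Of the 106 merged H3K27ac regions, 14 (13.2%) were ATRA-only, 1 was control-only and 18 (17.0%) were shared, beside 8.07%, 1.16% and 18.7%, and 6 of the 14 were those of RUNX3. Scaled to the library totals, the H3K4me3 lengths of RUNX3 and CBFB stayed above and those of RUNX2 and CBFA2T3 lay below, against 16.4% above and 25.9% below over all gene regions. For H3K27ac, RUNX3 stayed above and CBFA2T3 lay below, against 18.8% and 24.6%. The order of the members by percent of the gene region under H3K27ac changed with RUNX3. In the control, RUNX1 had 7.48% and 11.5%, RUNX2 4.68% and 16.0% and CBFA2T3 6.15% and 7.20%, a range that the RUNX2 values span. They were followed by RUNX3, with 2.44% and 1.44%, and CBFB, with 1.01% and 2.05%, which did not differ beyond their spread. After ATRA, RUNX3 lay above RUNX1, with 9.66% and 18.8%, and RUNX2, with 12.8% and 16.4%, whose values overlapped, and CBFA2T3, with 7.62% and 6.62%, lay above CBFB, with 2.20% and 4.41%. For H3K4me3, CBFB had the highest share of the gene region in every library, from 6.76% to 10.0%. The other 4 members with peaks lay between 3.06% and 6.25% with overlapping values. The CBFB share counts the starts of its neighbors CES4A and PHAF1. Within the gene alone, CBFB had 3.58 and 3.69 kb after ATRA and 3.18 and 3.6 kb in the control, of 71.9 kb. RUNX3 had more in a shorter gene, 7.52 and 7.56 kb after ATRA and 7.5 and 5.06 kb in the control, of 65.5 kb.

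**Figure D5:**
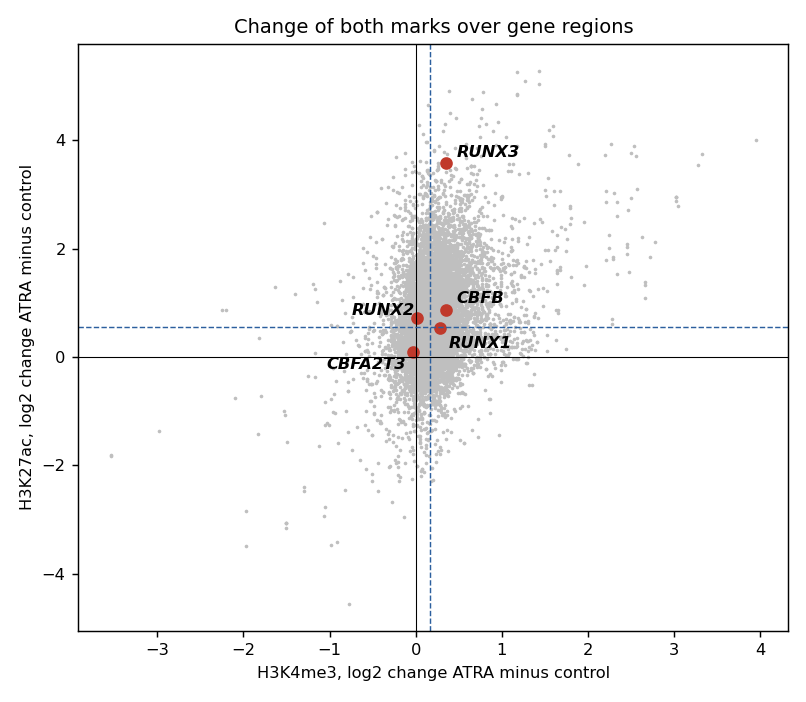
Log2 difference between ATRA and control on the log2(bp + 1000) scale for H3K4me3 (x axis) and H3K27ac (y axis) over the 15320 gene regions tested for both marks (grey), with the 5 members that have peaks in red and dashed lines at the medians of all regions tested for each mark. RUNX3 sits at 0.36 and 3.59, near the top of the cloud in H3K27ac, and the other 4 members lie between 0.09 and 0.86 in H3K27ac, around its median of 0.55.

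The genes whose 8 values were most alike, by Euclidean distance on the log2(bp + 1000) scale, were chosen for each member among genes outside the member regions. For RUNX1 they were FOXP1 (distance 0.613) and RAB7A (0.619), for RUNX2 DGKG (0.636) and LMO2 (0.731), and for CBFB ZMYM1 (0.378) and ZMYM6 (0.399). For CBFA2T3 they were RCOR1 (0.417) and ANP32A (0.439). RUNX3 had no gene as close, with STYXL1 at 0.915 and POR at 0.945. STYXL1 had 58177 and 34466 bp under H3K27ac after ATRA and 4771 and 4844 bp in the control, the same order of libraries as RUNX3 in the ATRA pair. ZMYM1 and ZMYM6, like STYXL1 and POR, have regions that share peaks, so each pair is not 2 separate matches.

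Other genes of the pathway were counted on 2 lists. Of 20 cofactors and partners of RUNX factors, which include the acetyltransferases EP300 and KAT6A and the corepressors SIN3A and NCOR1, 19 had H3K4me3 and 18 had H3K27ac in their regions, and with limma 0 passed the threshold in either direction for either mark (2 and 7 had an unadjusted p under 0.05). For H3K4me3, 55 gene regions (0.349%) passed it above and 13 (0.0825%) below among 15750, with 1494 at an unadjusted p under 0.05. Among the cofactors, 17 of 19 were higher after ATRA for H3K4me3 and 17 of 18 for H3K27ac. Over all gene regions, 13404 of 15750 were higher for H3K4me3 and 13965 of 16678 for H3K27ac, so most regions were higher in any case. The median log2 differences of the cofactors were 0.31 and 0.87 beside 0.17 and 0.55 for all gene regions. The largest H3K27ac difference among them was 4.31 at MECOM, named after its values were seen (limma adjusted p = 0.0743). Its region had 14296 and 24673 bp after ATRA and 0 and 0 bp in the control. The MECOM start itself had no peak of either mark within 1 kb in any library. H3K4me3 over the MECOM region was 0 and 613 bp after ATRA and 0 and 0 bp in the control. Of 12 myeloid genes that RUNX factors are known to bind, among them SPI1, CSF1R and MPO, 10 had H3K4me3 and 12 had H3K27ac, and 0 passed with limma (2 and 1 had an unadjusted p under 0.05). Of them, 8 of 10 and 9 of 12 were higher after ATRA, with medians of 0.20 and 0.39. CSF2 and IL3, named after their values were seen, are among those lower for H3K27ac. Each had 489 bp in control replicate 2, none in the other H3K27ac libraries and no H3K4me3. Their values were identical in every library, so they do not count as separate cases. GATA2, a factor of blood stem cells and progenitors named after its values were seen, had the largest difference on this list in both marks and in the other direction. Its region had 7596 and 8347 bp of H3K4me3 after ATRA and 18368 and 15168 bp in the control, and 0 and 690 bp of H3K27ac after ATRA and 11901 and 15021 bp in the control. The log2 differences were -0.98 and -3.47, with limma adjusted p of 0.120 and 0.0774.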

How the data were processed

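Peaks of 8 HL-60 ChIP-seq libraries (2 marks, 2 conditions, 2 replicates each) were used. The authors trimmed the reads with cutadapt and mapped them by Bowtie to hg19, and MACS2 was run in its broad mode on each library with no fragment model. Versions and the use of input libraries in the peak call are not given in the sources used here. The deposited score is 10 times the deposited −log10 q in all 8 files, and that −log10 q served only as a filter (at least 5). The deposited fold and −log10 p columns hold impossible values and were not used. No read counts are given, so the depth behind a peak is unknown and precision rests on 2 replicates. The labels do not say that replicates were separate cultures, so p-values measure only the spread between these libraries.

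Genes came from GENCODE release 44 on GRCh37, with protein-coding transcripts for the 681 genes that have no consensus one, and 0 peaks ran past its chromosome ends. Lengths under peaks were compared as log2(bp + 1000) in regions with a peak by limma 3.58.1 in R 4.3.3, two-sided, with Benjamini-Hochberg adjustment over all regions of a mark. Lengths were also given scaled to library totals. Peaks sharing 1 bp were merged. An exact permutation test of 2 against 2 libraries cannot go below p = 0.33, so none was run. The members and lists were chosen with earlier results of these data known. The rule for other genes named those of the lists past the limma threshold, neighbors with a peak over their start, the 2 most alike genes per member, and up to 3 ATRA-only and 2 control-only merged regions per member and mark. Some items of the marker lists are not reported here. The scripts were tested on simulated data. Python 3.11.15, numpy 2.4.6, pandas 2.3.3 and matplotlib 3.10.9 were used. Alternatives were the region size, the −log10 q, the pseudocount, the filter, scaling, peak numbers, the promoter and element windows, the merging, a replicate block and each library left out. Equal numbers of the longest peaks were added after seeing the data.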

Additional observations from a re-analysis of the deposited data

How the results depend on the processing

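RUNX3 had more H3K27ac after ATRA under all 16 alternatives tried, with log2 differences from 0.80 to 3.96 (3.22 to 3.96 with each library left out) and adjusted p from 0.065 to 0.777 without a block. Same-numbered libraries of ATRA and control deviated together over 40 kb bins (r = 0.22 for H3K4me3 and 0.375 for H3K27ac), and their peaks are named with a common tag, but the labels do not say what a number or the tag stands for. With the replicate number as a block, limma called 740 gene regions for H3K4me3 and 5386 for H3K27ac (330 and 1908 when also scaled). For H3K27ac 30.5% of all gene regions were called higher, RUNX3 among them (adjusted p = 6.014e-09, or 0.001352 scaled), and no other member. For H3K27ac, both same-numbered pairs changed the same way in 4 members, while 2 had no overlap between conditions. The share of all gene regions with that pattern is not given, so the 4 are no result about the members. By the log2 difference, 13965 of 16678 gene regions were higher after ATRA.

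The count of H3K4me3 calls, 68, was 35 with a pseudocount of 5000 bp, 112 with 100 kb on each side, 817 by number of peaks, and 0 with the stricter −log10 q, with the gene span alone and without any 1 library (0 to 0), where the lone library left in an arm is assumed to vary like the other arm. For H3K27ac, 0 became 360 by number of peaks. Members without overlap in H3K4me3, 2, were 4 when scaled, 1 for the gene span and 1 by number of peaks, and 2 to 5 with a library left out (5 without control replicate 1, 4 without control replicate 2). For H3K27ac they were 0 at the stricter −log10 q, and 2 to 5 with a library left out (4 without ATRA replicate 1, 5 without control replicate 2). ATRA-only H3K4me3 regions, 1, were 0 at the stricter −log10 q and among regions of at least 1 kb, and 1 to 4 with a library left out (3 without ATRA replicate 2, 4 without control replicate 1), and control-only ones 0 to 4 (4 without control replicate 2). ATRA-only H3K27ac regions, 14, and the control-only one were 0 at the stricter −log10 q, and 16 to 54 and 1 to 13 with a library left out (ATRA-only 54 and 30 without ATRA replicates 1 and 2, control-only 2 without ATRA replicate 1, 13 and 3 without control replicates 1 and 2). The ATRA minus control lengths were also summed over the distal and proximal promoters of RUNX1, RUNX2 and RUNX3. These sums were 53.5 bp for H3K4me3 and 2747 bp for H3K27ac. They were 270.5 and 4592 bp with 2.5 kb on each side, and that of H3K27ac was 804 bp at the stricter −log10 q. With a library left out they were -63.5 to 170.5 bp (-63.5 without ATRA replicate 1, 170.5 without ATRA replicate 2) and 1800 to 3694 bp (1800 without control replicate 1), and the H3K27ac difference at the RUNX1 element was -562 to 582 bp. The causes were not tested, beside the smaller numbers of libraries or peaks by construction.

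Among members, the direction turned as follows on the log2 scale. Scaled, with or without the block, the values were -0.20 for RUNX2 in H3K4me3, and -0.37 for RUNX1, -0.18 for RUNX2 and -0.78 for CBFA2T3 in H3K27ac. At the stricter −log10 q, H3K27ac was -1.51 for CBFA2T3 and -0.48 for CBFB. For the gene span it was -0.0030 for CBFB, and H3K4me3 of CBFA2T3 was 0.061. With 100 kb, CBFA2T3 had -0.24 in H3K27ac. By number of peaks, CBFB had -0.13 in H3K4me3. With equal peak numbers, CBFA2T3 had 0.020 in H3K4me3 and -0.22 in H3K27ac. With a library left out, the ranges were -0.18 to 0.21 (H3K4me3) and -0.14 to 1.57 (H3K27ac) for RUNX2, and -0.19 to 0.13 and -0.019 to 0.19 for CBFA2T3. RUNX1 had no H3K27ac peak at the stricter −log10 q and could not be fitted there.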
